A study of Mus musculus with 24 samples.

Results

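Pulmonary fibroblasts labelled TLR4-/- and wild type (WT) pulmonary fibroblasts were compared directly after both had been cultured with recombinant mouse cold-inducible RNA-binding protein (rmCIRP). The comparison used 6 of the 24 RNA-Seq libraries of the series, 3 for each genotype, chosen by their labels for genotype and treatment. All expressed genes were described except those on the sex chromosomes: of 16258 genes with enough reads to be tested, 523 were X- or Y-linked and were left out, and 15735 remained. The cells of each group were grown from the pooled lungs of 3 to 4 mice that were 4 to 8 weeks old, and were used at passage 3 to 6. All 6 libraries carry the strain label C57BL/6. The TLR4-/- mice came from a commercial supplier on that background, and their allele is not named in the sources used here. Both groups were kept overnight in the reduced serum medium Opti-MEM and then received 1 μg/mL rmCIRP for 24 h, without TGF-β1. Each group rests on 1 pool of lungs, and no label says that its 3 libraries came from separate cultures. The p-values therefore rest on the spread between replicate libraries, estimated over all 24, which may be technical.

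CIRP is an RNA-binding protein that injured or stressed cells release, and outside the cell it acts as a danger signal that binds the receptor complex of TLR4 and MD-2. TLR4 signals through the adaptor MyD88 to NF-κB and the MAP kinases, which drive cytokine and chemokine genes, and through the adaptor TRIF to interferon regulatory factors, which drive interferon-β and the genes it induces. NF-κB also induces its own inhibitors, among them IκBα and A20. Lung fibroblasts build the collagen matrix of the alveolar wall, and under inflammatory signals they release chemokines and matrix-degrading enzymes.

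Tlr4 mRNA, the transcript of the targeted gene, was present in both genotypes. In rmCIRP-treated cultures it had 941, 858 and 908 normalized counts in the 3 libraries labelled TLR4-/- and 771, 725 and 763 in the WT libraries, given here and below in replicate order. All 3 labelled TLR4-/- libraries were above all WT libraries, with a log2 difference of 0.27, SE 0.06 (adjusted p = 3.6e-04, quasi-likelihood F-test of edgeR, adjusted after Benjamini and Hochberg over all genes tested). The gene counts therefore did not show the loss that the label names, and they do not show which exons were read. For this reason the group is called by its label. A normalized count is the raw count divided by the library's size factor, and a log2 difference is the labelled TLR4-/- level minus the WT level on the log2 scale, as fitted by edgeR.

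Between 32683984 and 34813378 reads fell on genes in each WT library, and between 33222623 and 35651924 in each library labelled TLR4-/-. The groups also differed in sex-linked transcripts, with a raw count of Xist between 4403 and 6201 in libraries labelled TLR4-/- and of at most 1 in WT libraries, while Ddx3y of the Y chromosome was read in both, at 1982 to 2324 and at 3476 to 3853. Fibroblast markers were abundant in all 6 libraries, with summed normalized counts of 10 markers between 436529 and 477525 in WT and between 524525 and 575703 in labelled TLR4-/- libraries. Most of either sum came from Col1a1 and Col1a2, which were higher in the latter, while Pdgfra (-1.52), Thy1 (-0.83) and Tcf21 (-0.40) were lower and the other 5 markers did not pass. Macrophage markers were present as well and higher in the latter: the 13 markers summed to between 75405 and 80078 in WT and between 325247 and 369277 in labelled TLR4-/- libraries, and all 13 passed the test. In bulk RNA, more cells of a type and more RNA per cell cannot be told apart. The genotype label, the sex-linked transcripts, the macrophage markers and the pool of lungs all separate the same libraries, so their parts in the results below cannot be told apart.

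Of the 15735 genes, 9354 (59.4%) passed the adjusted p threshold of 0.1 in edgeR's quasi-likelihood test. In the libraries labelled TLR4-/- 4749 genes were higher (30.2%) and 4605 lower (29.3%), relative to a scaling that centres most genes near 0 (median over all genes -0.001). The 3 libraries of one genotype lay wholly above those of the other for 9778 genes (62.1%). The counts in the gene lists below are to be read against these shares. A list with a share of calls near 59.4% does not stand out by that count. Of the called genes, 57.3% differed by less than 0.5 on the log2 scale. A difference of at least 1 was found for 1099 genes on the higher side (6.98%) and for 947 on the lower side (6.02%), and one of at least 5 for 32 and 36 genes. The same genotype contrast was fitted in libraries that share none with these, and 7379 genes (46.9%) were called with phosphate-buffered saline (PBS) and 8295 (52.7%) with rmCIRP plus rmTGF-β1. The genotype difference with rmCIRP departed from that with PBS for 4949 genes (31.5%).

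**Figure D1:**
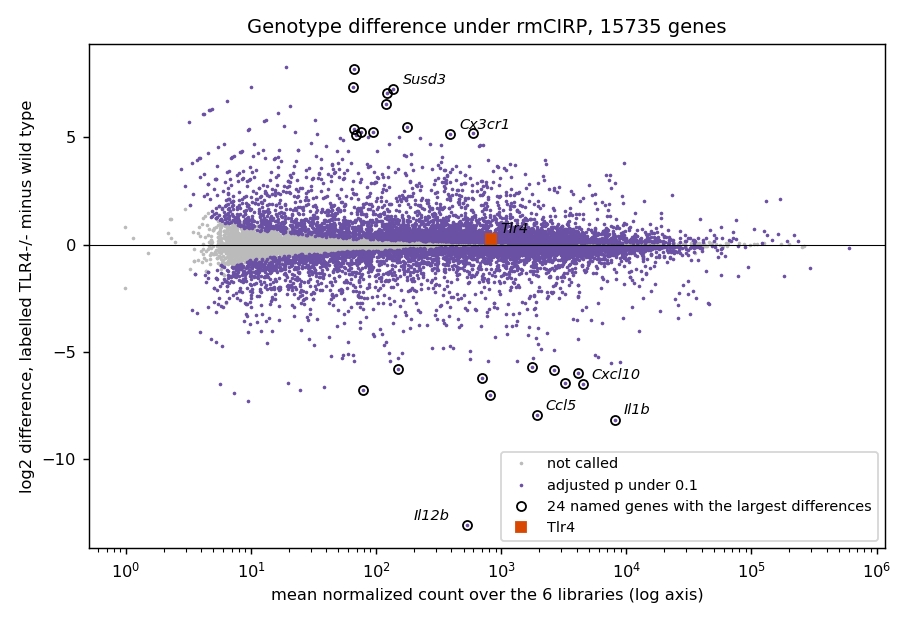
Log2 difference between libraries labelled TLR4-/- and WT libraries under rmCIRP (vertical axis, fitted by edgeR) against the mean normalized count over the 6 libraries (horizontal log axis), with 1 point for each of 15735 genes. The circled genes with the largest differences reach -8.15 for Il1b on the lower side, Il12b lies still lower at a value set by the model because it had no read in 1 group, and Tlr4 (square) sits just above 0.

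The genes furthest below WT in the libraries labelled TLR4-/- included genes of cytokines, chemokines and interferon-inducible proteins. Il1b, the gene of the pyrogenic cytokine IL-1β, had 50.1, 57.5 and 60.9 normalized counts in the libraries labelled TLR4-/- and 15920, 15500 and 16810 in WT, a log2 difference of -8.15 (SE 0.13, adjusted p = 1.5e-21 from edgeR) or 284-fold lower. Il12b, which encodes the p40 subunit shared by IL-12 and IL-23, had no read in any library labelled TLR4-/- and 1227, 893 and 1093 normalized counts in WT. Set against a floor of 3 counts per library, it was at least 370-fold lower. Ccl5, a chemokine for T cells and monocytes, had 12.8, 18.6 and 14.7 against 3635, 3605 and 4275 normalized counts and differed by -7.94 (SE 0.16). For each of these genes the groups were separated by more than 2 orders of magnitude, far beyond the spread within either group.

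Nos2, the inducible nitric oxide synthase, had 15.7, 13 and 8.85 normalized counts in libraries labelled TLR4-/- and 1462, 1498 and 1867 in WT, a log2 difference of -6.98 (SE 0.18). Csf2, which encodes the growth factor GM-CSF, had 4 reads over the 3 labelled TLR4-/- libraries and 150, 149 and 168 normalized counts in WT, a difference of -6.78 that was -7.98 without library 2 labelled TLR4-/-. Cxcl3, a neutrophil attractant, had 64.9 to 80.7 normalized counts in libraries labelled TLR4-/- and 6179 to 6603 in WT, and Il1a, the gene of IL-1α, had 108 to 147 and 7757 to 8831. Their log2 differences were -6.46 (SE 0.19) and -6.00 (SE 0.18). The remaining members of the 12 largest were interferon-inducible: Cxcl10 (-6.51), the guanylate-binding protein gene Gbp5 (-6.22), Rsad2 (-5.83), which encodes the antiviral enzyme viperin, and the GTPase genes Gm4841 (-5.79) and Iigp1 (-5.69), which belong to a family with similar copies among which reads could be split. None of these 12 genes overlapped between the groups, which the naming rule required.

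**Figure D2:**
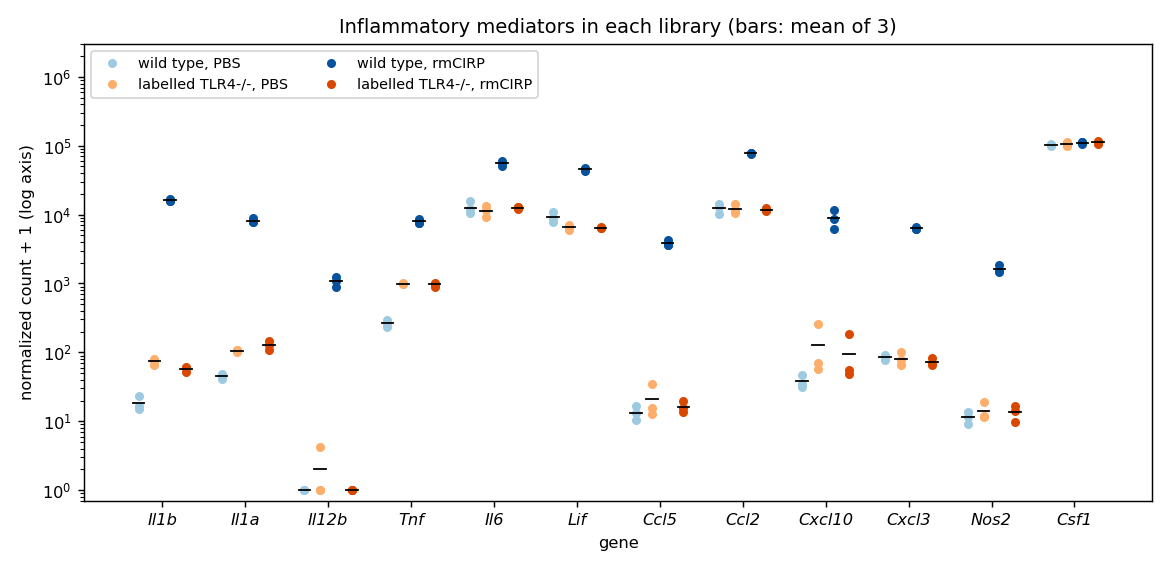
Normalized count plus 1 (vertical log axis) of 12 inflammatory mediators in each of 12 libraries, by genotype and treatment, with a bar at the mean of the 3 libraries of a group. Under rmCIRP the WT libraries lie above the libraries labelled TLR4-/- for every gene shown except Csf1, and Il12b had no read in the 3 rmCIRP libraries labelled TLR4-/-.

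The promoters of 4 of these genes and of Nfkbia, the gene of the inhibitor IκBα, are shown as examples of the motifs of transcription factors downstream of TLR4. The promoter of Csf2, with an ISRE core 199 bases before the gene, is not printed. Each sequence is the 250 bases before the start of the RefSeq gene in build GRCm38.p6, on the strand of the gene. Capitals mark matches on either strand to the NF-κB consensus or to the core of the interferon-stimulated response element (ISRE), GAAANNGAA. The authors' processing notes name another build, so these positions are those of the reference only.

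Cxcl10, chr5:92348890-92349139, minus strand, with an ISRE core that starts 213 bases before the gene and NF-κB matches 159 and 103 bases before it.
Cxcl10: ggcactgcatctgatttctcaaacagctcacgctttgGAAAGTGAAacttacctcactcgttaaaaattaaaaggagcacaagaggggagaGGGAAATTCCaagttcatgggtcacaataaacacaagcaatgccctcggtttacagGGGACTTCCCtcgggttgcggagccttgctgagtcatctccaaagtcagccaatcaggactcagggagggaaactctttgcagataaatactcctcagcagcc
Cxcl3, chr5:90785851-90786100, plus strand, with 2 overlapping NF-κB matches that start 73 and 72 bases before the gene.
Cxcl3: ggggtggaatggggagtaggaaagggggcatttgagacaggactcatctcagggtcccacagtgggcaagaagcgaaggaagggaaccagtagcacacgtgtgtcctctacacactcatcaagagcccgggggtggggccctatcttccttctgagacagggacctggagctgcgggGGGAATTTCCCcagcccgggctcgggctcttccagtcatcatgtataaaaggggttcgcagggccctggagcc
Gbp5, chr3:142496684-142496933, plus strand, with an ISRE core 164 and an NF-κB match 77 bases before the gene.
Gbp5: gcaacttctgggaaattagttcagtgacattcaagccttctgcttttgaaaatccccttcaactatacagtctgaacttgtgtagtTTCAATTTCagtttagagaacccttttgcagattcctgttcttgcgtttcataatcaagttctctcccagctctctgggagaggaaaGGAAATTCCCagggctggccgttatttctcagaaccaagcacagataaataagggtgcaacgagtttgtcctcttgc
Rsad2, chr12:26456453-26456702, minus strand, with an ISRE core 119 bases before the gene.
Rsad2: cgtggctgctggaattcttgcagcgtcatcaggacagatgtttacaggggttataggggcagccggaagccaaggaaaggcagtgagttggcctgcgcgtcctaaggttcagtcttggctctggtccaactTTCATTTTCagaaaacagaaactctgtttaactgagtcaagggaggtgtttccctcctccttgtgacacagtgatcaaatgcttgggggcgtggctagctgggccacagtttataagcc
Nfkbia, chr12:55492648-55492897, minus strand, with an ISRE core 53 and an NF-κB match 29 bases before the gene.
Nfkbia: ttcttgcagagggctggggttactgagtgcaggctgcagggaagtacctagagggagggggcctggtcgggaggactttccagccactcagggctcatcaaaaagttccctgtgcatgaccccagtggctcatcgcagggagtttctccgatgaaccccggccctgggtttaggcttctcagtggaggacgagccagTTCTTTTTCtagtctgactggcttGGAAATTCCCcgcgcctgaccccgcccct

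Over all 32851 promoters of this length in the table, 3.9% held the NF-κB consensus and 7.13% the ISRE core. Among the 12 genes furthest below WT, 8 had a promoter in the table, of which 3 held the NF-κB consensus and 4 the ISRE core. Of the 29 promoters found for 23 of the interferon-stimulated genes described below, 13 held the ISRE core (44.8%) and 3 the NF-κB consensus (10.3%). The genes of NF-κB subunits and feedback inhibitors had the NF-κB consensus in 11 of 24 promoters of 19 genes (45.8%), and the CXC chemokines had it in 4 of 9. In the 15 promoters found for 9 of the 12 genes furthest above WT neither motif was found, nor in 14 promoters of 12 collagens. At the shares over all promoters, few or no matches would be found in sets this small. Among 22 promoters of 19 macrophage identity and lysosome genes, which were mostly higher, 3 held the NF-κB consensus (13.6%) and 1 the ISRE core (4.55%). The promoters of Il1b, Il1a and Il12b held neither motif in this window. A match is a description of the letters and says nothing of binding.

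The inflammatory cytokines were lower as a group in the libraries labelled TLR4-/-. Of 21 listed, 2 had too few reads, and of the 19 tested 16 were lower, 1 was higher and 2 did not pass, with a median log2 difference of -2.89. Il10, which encodes an anti-inflammatory cytokine, had 4.92, 2.78 and 0.983 normalized counts against 105, 105 and 182 in WT and differed by -5.43 (SE 0.37). Tnf had 1018, 901 and 980 normalized counts in libraries labelled TLR4-/- and 7474, 7678 and 8696 in WT, a log2 difference of -3.03 (SE 0.10). Il6 had 11880, 12790 and 13070 against 56840, 51100 and 59860, a difference of -2.15 (SE 0.24). For Tnf, Il6 and Il1b every library labelled TLR4-/- was below every WT library (exact permutation test, two-sided p = 0.1 each, the smallest that 3 against 3 libraries allow).

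Among the other lower members, Csf3, the gene of the neutrophil growth factor G-CSF, differed by -4.94 (SE 0.13), Il27 by -4.70 (SE 0.27) (-5.36 without library 3 labelled TLR4-/-), Lif by -2.81 (SE 0.26), Il11 by -2.47 (SE 0.25) and Il33, a nuclear alarmin, by -2.89 (SE 0.50). Il1rn, which encodes the antagonist of the IL-1 receptor, was lower too, at 843 to 957 against 3885 to 4814 normalized counts. The single higher member was Ebi3, at 96.5 to 126 against 76.4 to 83. Csf1, the growth factor of macrophages, had 110000, 118700 and 106200 normalized counts in libraries labelled TLR4-/- and 112500, 112600 and 107700 in WT and did not pass (log2 difference 0.02, adjusted p = 0.84 from edgeR). Lta, at 1.97 to 6.88 against 6.37 to 10.3, did not pass either (-0.90, adjusted p = 0.12 from edgeR).

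Chemokines of both main classes were mostly lower. Of 12 CXC chemokines tested, 9 were lower, 1 was higher and 2 did not pass, with a median log2 difference of -3.73, or -4.45 without library 2 labelled TLR4-/-. The neutrophil attractants Cxcl1 and Cxcl2 had 333, 436 and 390 and 303, 289 and 369 normalized counts in libraries labelled TLR4-/-, against 17060, 17050 and 17920 and 14530, 14350 and 15760 in WT, which gave log2 differences of -5.48 (SE 0.44) and -5.53 (SE 0.17). These genes share sequence with each other and with Cxcl3, so reads of 1 may have been counted on another or dropped. Cxcl11 had no read in libraries labelled TLR4-/- and was at least 6.58-fold lower against the floor of 3 counts. Pf4, a chemokine of platelets and macrophages, was the higher member, at 1102 to 1363 against 519 to 565 normalized counts, and 2 members were higher without library 2 labelled TLR4-/- or without WT library 3. Cxcl14 (0.13) and Ppbp (0.62) did not pass.

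Of 14 CC chemokines tested, 9 were lower, 3 were higher and 2 did not pass, with a median of -1.95. Ccl2, the main attractant of monocytes, had 11230, 11600 and 12270 normalized counts in libraries labelled TLR4-/- and 79080, 77000 and 78550 in WT, a log2 difference of -2.73 (SE 0.18). Ccl22 had 2 reads over the 3 libraries labelled TLR4-/- and 70, 76.1 and 82 normalized counts in WT, a ratio of 119 with a 95% counting interval from 32.4 to 985. Ccl11, or eotaxin, differed by -3.82 (SE 0.23) and Ccl3 by -3.64 (SE 0.13). The 3 higher members were Ccl6 (1.94, SE 0.10), Ccl17 (1.41, SE 0.25) and Ccl12 (1.15, SE 0.12). The groups did not overlap for any of them, as for 62.1% of all genes. Ccl8 (-0.25) and Cx3cl1 (0.22) did not pass.

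Interferon-stimulated genes made up the most uniform group. All 30 listed genes were tested and all 30 were lower in libraries labelled TLR4-/-, 28 of them by at least 1 on the log2 scale, with a median of -3.86. Ifit1, which binds viral RNA, had 131, 645 and 122 normalized counts in libraries labelled TLR4-/- and 12100, 8855 and 14030 in WT, a difference of -5.26 (SE 0.51). Isg15, a ubiquitin-like modifier, had 203, 697 and 208 against 7677, 6447 and 9582 and differed by -4.40 (SE 0.39). The signal transducer Stat2 differed by -2.48 (SE 0.19), and Irf7, the interferon regulatory factor that amplifies the response, by -3.90 (SE 0.31). The smallest differences were those of Irf1 (-0.84, SE 0.09) and Isg20 (-0.95, SE 0.10), and both passed.

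These genes also varied together within each group. All 30 were highest in library 2 among those labelled TLR4-/- and in library 3 among the WT libraries. Their summed normalized counts were 8584, 15398 and 9113 in the libraries labelled TLR4-/- and 115360, 94408 and 138544 in WT, so the highest sum of one group stayed well below the lowest of the other. With PBS the sums were between 8346 and 10763 in libraries labelled TLR4-/- and between 7868 and 8321 in WT. Without library 2 labelled TLR4-/- all 30 genes were still called lower and the median was -4.46. Single genes moved by more than 1.5-fold when that library was left out, with differences of -6.52 for Ifit1, -5.26 for Isg15, -4.6 for Irf7, -7.43 for Cxcl10, -7.51 for Gm4841 and -7.15 for Iigp1.

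**Figure D3:**
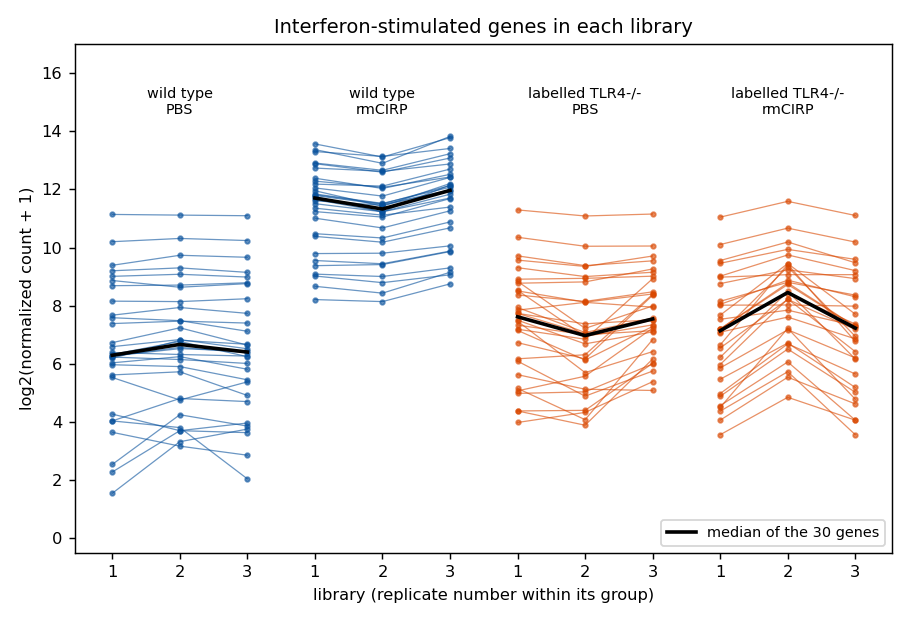
Log2 of the normalized count plus 1 (vertical axis) of 30 interferon-stimulated genes in each of 12 libraries, in 4 groups of 3 (horizontal axis), with lines that join the values of 1 gene within a group and a black line at the median. The WT libraries with rmCIRP lie highest, and among the rmCIRP libraries labelled TLR4-/- all 30 genes are highest in library 2.

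The genes of NF-κB itself and of its feedback inhibitors were lower by smaller amounts. Of 22 tested, 16 were lower, 5 were higher and 1 did not pass, with a median of -0.95. Traf1, an adaptor of the TNF receptors that NF-κB induces, differed most, at 49.2, 30.6 and 72.7 against 660, 632 and 723 normalized counts (-3.72, SE 0.15). Nfkbia, whose promoter is printed above, had 3370, 3121 and 3380 normalized counts in libraries labelled TLR4-/- and 10660, 10330 and 11000 in WT, and Tnfaip3, the gene of A20, had 1036, 1147 and 1090 against 4085, 4179 and 4160. Their log2 differences were -1.69 (SE 0.10) and -1.92 (SE 0.15). The cytokine signalling inhibitor Socs1 differed by -2.13 (SE 0.15). Among the subunits, Nfkb1 differed by -1.61, Nfkb2 by -1.07, Relb by -0.72, Rel by -0.45 and Rela by -0.22, all lower in libraries labelled TLR4-/-. The higher members were led by Nfkbid (1.30, SE 0.11) and the phosphatase gene Dusp1 (0.60, SE 0.08), and Bcl3 (0.10) did not pass.

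The receptors and adaptors upstream showed no common direction. Of 27 genes of Toll-like receptor signalling, Tlr7, Tlr8 and Irak1 are X-linked and were left out. Of the 24 tested, 10 were higher, 9 were lower and 5 did not pass, with a median of 0.00. Tlr9 (3.17, SE 0.34), Ly86 (2.54, SE 0.12) and Cd180 (2.49, SE 0.11) were higher, the last of these with 1082 to 1102 against 173 to 218 normalized counts. Ly86 encodes MD-1, the partner of the TLR4 homologue CD180. The partners of TLR4 itself differed little: Ly96, the gene of MD-2, had 280, 307 and 314 against 337, 360 and 356 normalized counts (-0.22, SE 0.08) and did not pass without library 1 labelled TLR4-/- (-0.17, adjusted p = 0.124 from edgeR). The co-receptor Cd14 had 4466, 4098 and 4820 against 5436, 4614 and 5316 and did not pass (-0.19, adjusted p = 0.14 from edgeR), but it did without library 3 labelled TLR4-/- or without WT library 2 (adjusted p = 0.0905 and 0.068 from edgeR). Myd88 (-0.37, SE 0.05), Ticam1, the gene of TRIF (-0.31, SE 0.05), and Tirap (-0.26, SE 0.05) were lower, while Ticam2, the gene of the bridging adaptor TRAM, was higher (1.45, SE 0.16). Tlr3 (-1.35, SE 0.12) and the inhibitory kinase gene Irak3 (-1.45, SE 0.12) were the lower members with the largest differences. Traf6 (-0.12), Map3k7 (-0.06), Tab2 (0.05) and Tlr1 (0.21) did not pass.

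Enzymes that make lipid and nitrogen mediators fell into opposite groups. Of 13 tested, 10 were lower and 3 higher, with a median of -0.62. Acod1, which makes itaconate, had 820, 759 and 950 normalized counts in libraries labelled TLR4-/- and 9434, 9064 and 10310 in WT (-3.50, SE 0.09). The prostaglandin enzymes Ptgs2, or COX-2, and Ptges had 93010 to 99300 and 3732 to 4546 against 255100 to 271300 and 21670 to 24160, differences of -1.44 (SE 0.13) and -2.50 (SE 0.21). Higher were the leukotriene genes Alox5, at 528, 479 and 543 against 19.1, 16.5 and 24.7 (4.68, SE 0.13), and Alox5ap (3.22, SE 0.11), and Arg1 (1.37, SE 0.24). Hpgd, which encodes the enzyme that inactivates prostaglandins, was the gene furthest above WT among those that averaged 50 or more normalized counts and is described below.

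Complement and acute-phase genes divided in a like manner, with 10 of 18 lower, 6 higher and 2 not called, and a median of -0.47. The acute-phase genes Saa3 and Lcn2 had 7395 to 11290 and 101 to 130 normalized counts in libraries labelled TLR4-/- against 36510 to 48550 and 731 to 1006 in WT, and differed by -2.25 (SE 0.23) and -2.96 (SE 0.26). Cfb, a factor of the alternative pathway, differed by -3.96 (SE 0.40) and Ptx3 by -2.42 (SE 0.16). The 3 chains of C1q were higher, with C1qa at 13690, 11920 and 14630 against 1443, 1308 and 1551 (3.23, SE 0.09), C1qc by 3.03 (SE 0.09) and C1qb by 2.88 (SE 0.09), and so were the anaphylatoxin receptor genes C3ar1 (2.62) and C5ar1 (2.51). C3 (0.08) and C2 (-0.52) did not pass.

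Genes of antigen presentation by MHC class I were lower in part, with 8 of 12 lower, 3 higher and 1 not called, and a median of -0.66. The peptide transporter gene Tap1 differed by -2.13 (SE 0.12), the transactivator gene Nlrc5 by -0.94 (SE 0.14), Psme2 by -0.86 (SE 0.05) and Psmb10 by -0.77 (SE 0.09). The class I heavy chain genes H2-D1 (0.62, SE 0.07) and H2-K1 (0.19, SE 0.07) were higher, but these belong to a family of near-identical genes and are uncertain. H2-K1 did not pass without library 3 labelled TLR4-/- (0.14) or without WT library 2 (0.11), and only 1 member of the list was then higher. Psmb9 (-0.28) did not pass. Of 6 MHC class II genes tested, 3 were higher and 1 was lower, H2-Eb1 (-0.44, SE 0.21), which did not pass without library 2 or 3 labelled TLR4-/- or without WT library 1 or 3 (-0.48 to -0.26). H2-DMb2 had 1 read over the WT libraries and 13.8, 13 and 8.85 normalized counts in libraries labelled TLR4-/-, a ratio of 34.8 with a 95% counting interval from 5.87 to 1410. H2-Ab1 (0.08) and Cd74 (0.38) did not pass.

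Targets of NRF2, the regulator of antioxidant genes, had 7 of 11 members lower, 1 higher and 3 not called, with a median of -0.33. Slc7a11, the cystine transporter, had 964, 806 and 908 normalized counts in libraries labelled TLR4-/- and 3941, 4104 and 4249 in WT (-2.19, SE 0.22). The other lower members differed by less, from -0.60 for Nqo1 to -0.31 for Srxn1, which did not pass in 5 of the 6 fits that left out 1 library, all but that without WT library 1 (-0.32 to -0.25). Hmox1 had 40030, 38660 and 39170 against 35860, 41050 and 44500, with overlapping groups, and Hmox1 (-0.04), Gsr (-0.12) and Gclm (0.13) did not pass.

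**Figure D4:**
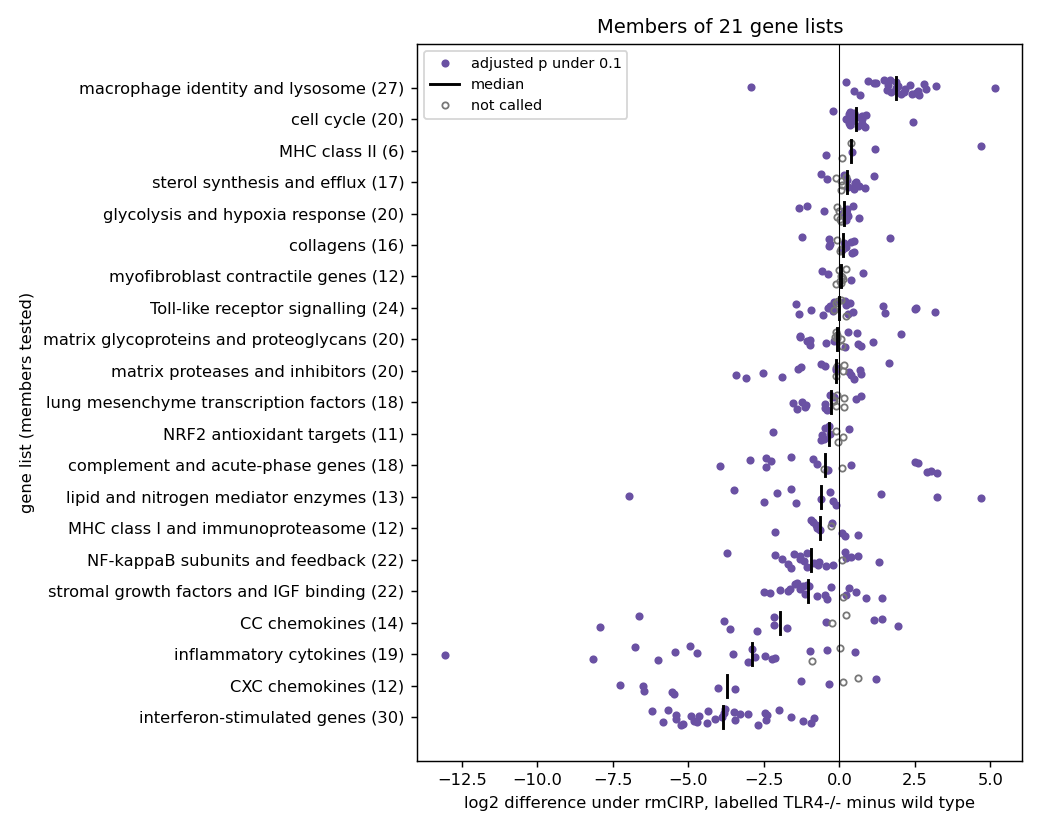
Log2 difference under rmCIRP (horizontal axis, libraries labelled TLR4-/- minus WT) of the tested members of 21 gene lists, ordered by their median (black bar), with filled points for genes called and open points for genes not called. Interferon-stimulated genes, with a median of -3.86, are lowest, and macrophage identity and lysosome genes, with a median of 1.88, are highest. The value of Il12b, the leftmost point, is set by the model.

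On the higher side, the 12 genes furthest above WT by the naming rule were led by Hpgd, Susd3 and Fgd2. Hpgd had 120, 128 and 153 normalized counts in libraries labelled TLR4-/- and 1 read over the 3 WT libraries, a ratio of 391 with a 95% counting interval from 69.8 to 15500. Susd3 had 270, 269 and 280 against 1.06, 1.03 and 2.96 normalized counts, a log2 difference of 7.23 (SE 0.21). Fgd2, an exchange factor for the GTPase Cdc42, had 276, 222 and 224 against 0, 1.03 and 3.95 (7.05, SE 0.30). For all 3 the WT libraries were at or near 0 while every library labelled TLR4-/- held more than 100 normalized counts. Without WT library 3, which held most of the few WT reads, Susd3 differed by 7.87 and Fgd2 by 8.54.

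Cnr2, the cannabinoid receptor of immune cells, differed by 6.56 (SE 0.33), Lrmp, a membrane protein of the endoplasmic reticulum in lymphoid and myeloid cells, by 5.50 (SE 0.20), and Rgs18, a regulator of G-protein signalling, by 5.37 (SE 0.31). The inflammasome sensor gene Nlrp1b (5.26, SE 0.24) and the proton-sensing receptor gene Gpr65 (5.25 (SE 0.31), and 6.09 without WT library 3) followed. Rab3il1 had 1149, 1055 and 1245 normalized counts against 34, 30.9 and 28.6 in WT (5.21, SE 0.15), and Cx3cr1, the fractalkine receptor, had 780, 580 and 934 against 24.4, 16.5 and 23.7 (5.15, SE 0.25). Traf3ip3 differed by 5.12 (SE 0.28). The predicted gene Gm21451 had 2 reads over the WT libraries and 108, 156 and 128 normalized counts in those labelled TLR4-/-, a ratio of 192 with a 95% counting interval from 52.8 to 1590. All 12 genes were also higher in libraries labelled TLR4-/- with PBS.

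The list of macrophage identity and lysosome genes was higher almost throughout: 26 of 27 were higher and 1 was lower, with a median of 1.88 with rmCIRP and 1.97 with PBS. Csf1r, the receptor that sustains macrophages, had 13020, 11890 and 14140 normalized counts in libraries labelled TLR4-/- and 2286, 1944 and 2139 in WT (2.62, SE 0.07). Lyz2, the lysozyme of myeloid cells, had 257900 to 290600 against 60430 to 63900 (2.15, SE 0.07), and Cd163, a scavenger receptor for haemoglobin, had 83.6, 71.5 and 80.6 against 10.6, 7.2 and 7.9 (3.19, SE 0.32). Trem2 (2.86, SE 0.10) and Laptm5 (2.79, SE 0.09) were close to the C1q genes in size. The smallest differences were those of the cysteine protease gene Ctsk (0.23, SE 0.06), the high-affinity antibody receptor gene Fcgr1 (0.49, SE 0.11) and Adgre1, the gene of F4/80 (0.68, SE 0.07). Marco, a scavenger receptor that inflammatory signals induce in macrophages, was the lower member, at 452, 380 and 444 against 3387, 3152 and 3328 (-2.94, SE 0.11).

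The cytokine genes and the macrophage genes thus lay on opposite sides in the same libraries. The summed normalized counts of the 19 cytokines were 142129, 150633 and 140013 in libraries labelled TLR4-/- and 317184, 301448 and 324359 in WT, while the macrophage markers were at the levels given above in the opposite order. Most of the cytokine sum in libraries labelled TLR4-/- came from Csf1, which did not pass, so the sums do not stand for the list. Markers of most other cell types were low. The epithelial markers summed to between 274 and 335 in libraries labelled TLR4-/- and between 34.0 and 43.5 in WT, with Cdh1 (4.01), Krt8 (3.09) and Krt18 (3.07) higher and Krt5 without a read. Only these 3 of the 8 markers could be tested. Epcam, Sftpc, Sftpb, Scgb1a1 and Krt5 had too few reads in both groups. Endothelial markers summed to between 269 and 317 against 696 and 873, with 5 of 6 lower, among them Pecam1 (-2.35) and Cdh5 (-2.12). Neutrophil markers summed to between 141 and 177 against 269 and 313, dendritic cell markers to between 226 and 260 against 284 and 319, and mesothelial markers to between 820 and 876 against 495 and 565. Only 2 of 6 neutrophil markers could be tested, as S100a9, Ly6g, Elane and Cxcr2 had too few reads. Of the 6 dendritic cell markers 2 could be tested, without Flt3, Clec9a, Ccr7 and Cd209a. T cell markers summed to between 32.4 and 51.1 against 15.8 and 26.7, without reads of Cd3e and Cd3g in the libraries labelled TLR4-/- and of Cd3e, Cd3d and Cd3g in WT. B cell markers summed to between 10.8 and 12.1 against 47.3 and 81.0. Pax5, the only one with enough reads to be tested, was lower (-4.37, and -6.5 without library 2 labelled TLR4-/-). Smooth muscle and pericyte markers summed to between 23811 and 26483 against 28046 and 31314. The part of these cell types in the gene lists was not tested.

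Collagen genes differed little. Of 16 tested, 9 were higher, 4 were lower and 3 did not pass, with a median log2 difference of 0.12. The chains of type I collagen, Col1a1 and Col1a2, had 247500, 251100 and 259100 and 144600, 151600 and 163700 normalized counts in libraries labelled TLR4-/- against 198000, 188800 and 177900 and 119000, 107800 and 107600 in WT, differences of 0.43 (SE 0.08) and 0.47 (SE 0.07). Both genes were higher in all 3 libraries. The basement membrane collagens Col15a1 (1.67, SE 0.10) and Col18a1 (-1.25, SE 0.11) differed most and in opposite directions, and Col11a1 was higher (0.47, SE 0.09). Col3a1 (0.02), Col4a2 (0.06) and Col12a1 (-0.08) did not pass. The genotype difference was higher with rmCIRP than with PBS past the threshold for 12 of the 16 collagens and lower for 1. The count of higher collagens was 6 without WT library 3 and 7 without WT library 2 or without library 2 or 3 labelled TLR4-/-.

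Matrix glycoproteins and proteoglycans were split, with 7 of 20 higher, 7 lower and 6 not called, and a median of -0.08. Spp1, or osteopontin, a protein of both macrophages and fibroblasts, had 211800, 199300 and 226300 normalized counts in libraries labelled TLR4-/- and 50920, 48540 and 55180 in WT (2.05, SE 0.07), and Postn, or periostin, was higher by 1.11 (SE 0.07). Mfap4, a protein of elastic fibres (-1.30, SE 0.24), the proteoglycan Vcan (-1.29, SE 0.07) and tenascin C, Tnc, at 187100, 185800 and 190000 against 406900, 381600 and 406000 (-1.08, SE 0.07), were lower. Sparc (0.04), Fbn1 (0.08), Dcn (-0.08), Lum (-0.14), Mfap5 (-0.07) and Loxl1 (-0.10) did not pass.

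Contractile genes of the myofibroblast were mostly not called: 8 of 12 did not pass, 2 were higher and 2 were lower, with a median of 0.05. Acta2, the gene of α-smooth muscle actin, had 233800, 256700 and 237500 normalized counts in libraries labelled TLR4-/- and 267100, 277500 and 247500 in WT, with overlapping groups (-0.11, SE 0.10, adjusted p = 0.37 from edgeR). Lmod1 (0.79, SE 0.19) and Cnn2 (0.37, SE 0.10) were higher, and Myh11 (-0.56, SE 0.11) and Actg2 (-0.39, SE 0.10) were lower. Cnn1 (0.01), Tagln (0.06), Myl9 (0.11), Mylk (0.22), Tpm1 (0.10), Tpm2 (0.04) and Cald1 (0.00) did not pass. With PBS, 9 of these 12 genes were lower in libraries labelled TLR4-/- and 1 was higher, with a median of -0.38. The genotype difference was higher with rmCIRP than with PBS past the threshold for 10 of the 12.

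Matrix-degrading enzymes and their inhibitors went both ways. Of 20 proteases and inhibitors, 10 were lower, 6 were higher and 4 did not pass, with a median of -0.10. The stromelysins Mmp10 and Mmp3 had 4292, 4155 and 4549 and 3633, 3687 and 4378 normalized counts in libraries labelled TLR4-/-, against 44650, 45740 and 50970 and 33150, 27580 and 39150 in WT, and differed by -3.44 (SE 0.29) and -3.09 (SE 0.25). The collagenases Mmp13 (-2.55, SE 0.23) and Mmp8 (-1.90, SE 0.07) were lower too. The higher side was led by Adamts5, an aggrecan-cleaving protease, at 1026 to 1176 against 348 to 367 (1.65, SE 0.16), with Mmp12, the macrophage elastase (0.71, SE 0.07), and the inhibitor Timp3 (0.67, SE 0.07). Mmp9 (-0.10), Mmp19 (0.12) and Adamts1 (0.14) were among those that did not pass.

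Growth factors and IGF-binding proteins of the stroma were mostly lower, with 16 of 22 lower, 5 higher and 1 not called, and a median of -1.03. With PBS 13 of the 22 were lower and 4 higher, and the genotype difference moved lower with rmCIRP for 10 and higher for 3. Hgf, a growth factor for epithelium, had 482, 435 and 591 normalized counts in libraries labelled TLR4-/- and 3070, 2570 and 2926 in WT (-2.50, SE 0.15), and Fgf10, which drives lung branching, had 1084, 1025 and 1185 against 5889, 4952 and 5271 (-2.28, SE 0.12). Igfbp3 (-1.97, SE 0.42) and Igfbp2 (-1.71, SE 0.13) followed. With PBS, Hgf and Fgf10 differed by -2.27 and -2.27, close to their values with rmCIRP. The isoforms of TGF-β were divided: Tgfb2 (1.40, SE 0.16) and Tgfb3 (0.89, SE 0.13) were higher and Tgfb1 was lower (-0.42, SE 0.08). Pdgfa (0.13) did not pass.

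Transcription factors of the lung mesenchyme were lower for 10 of 18, higher for 2 and not called for 6, with a median of -0.27. Foxf1, needed for the lung mesenchyme and its vessels, had 1722, 1666 and 1748 normalized counts against 4802, 4221 and 4708 in WT (-1.41, SE 0.09), and Tbx4 differed by -1.12 (SE 0.05). Meox1 (-1.52, SE 0.23) and Meox2 (-1.23, SE 0.25) were lower at low counts. The higher members were Osr1 (0.73, SE 0.18) and Hoxa4 (0.55, SE 0.17). Twist1 (-0.13), Tbx5 (0.14), Hoxa5 (0.14), Nr2f1 (-0.07), Gli1 (-0.18) and Gli2 (-0.21) did not pass.

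Cell cycle genes were higher together by small amounts: 19 of 20 were higher and 1 was lower, with a median of 0.53. Ccnd1, the gene of cyclin D1, had 4830, 4463 and 4862 normalized counts in libraries labelled TLR4-/- and 867, 817 and 921 in WT (2.45, SE 0.07), and Mki67, which marks cycling cells, had 2834, 2550 and 2900 against 1488, 1641 and 1456 (0.86, SE 0.09). The replication licensing genes Mcm5 (0.86, SE 0.10) and Mcm3 (0.75, SE 0.08) were next in size. Cdkn1a, which encodes the inhibitor p21, was the lower member (-0.21, SE 0.04).

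Genes of glycolysis and the hypoxia response had 11 of 20 members higher, 3 lower and 6 not called, with a median of 0.14. The enzymes that passed were higher by at most 0.64, the value of Pfkp. The lower members were Adm, the gene of adrenomedullin (-1.33, SE 0.13), the oxygen sensor gene Egln3 (-1.09, SE 0.08) and the glucose transporter gene Slc2a1 (-0.51, SE 0.09). Hif1a (-0.09), Ldha (0.00), Hk1 (0.04), Hk2 (0.06), Pfkl (0.01) and Pfkfb3 (-0.08) did not pass. Sterol genes were higher for 10 of 17, lower for 2 and not called for 5, with a median of 0.26. Abcg1, a cholesterol exporter, was higher (1.14, SE 0.12), while Ch25h, which makes 25-hydroxycholesterol, was lower (-0.61, SE 0.12). Fasn (-0.11), Insig1 (0.05), Fdps (0.10) and Abca1 (0.23) were among those that did not pass.

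Over all called genes, 55.4% of the higher and 49.5% of the lower genes were called in the same direction with PBS. Among genes with a difference of at least 1 these shares lay further apart. Of the 1099 genes higher by at least 1 with rmCIRP, 84.1% were called higher with PBS as well, 0.364% were called lower and 15.6% were not called. Of the 947 genes lower by at least 1, 45.7% were called lower with PBS, 13.4% were called higher and 40.9% were not called. In all, 4911 genes were called in the same direction in both comparisons, which was 52.5% of the calls with rmCIRP and 66.6% of those with PBS. The differences had a Pearson correlation of 0.586 across the 15735 genes, which are not independent replicates. The comparisons share no library, but they share the estimate of the spread. The libraries of a genotype may also come from the same pool of lungs, so the comparisons may not be independent.

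**Figure D5:**
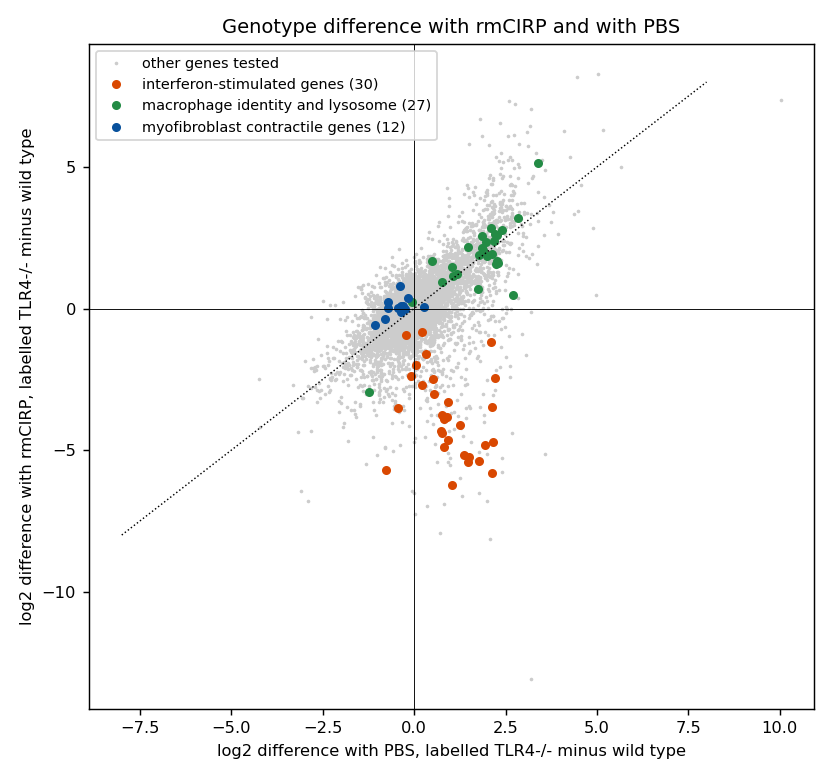
Log2 difference between libraries labelled TLR4-/- and WT libraries with rmCIRP (vertical axis) against the same difference with PBS (horizontal axis) for 15735 genes, with 3 gene lists coloured and the line of equal values dotted. Most macrophage identity and lysosome genes lie above 1 on both axes, with 13 of 27 called above and 7 called below the dotted line, while all 30 interferon-stimulated genes lie below 0 on the vertical axis and have a median of 0.85 on the horizontal axis.

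The change between treatments took different directions in different lists. The median of the interferon-stimulated genes was -3.86 with rmCIRP and 0.85 with PBS, where 17 were called higher and 1 lower. The count of higher genes with PBS was 10 without PBS library 3 labelled TLR4-/- and 11 without WT PBS library 3. For all 30 the genotype difference with rmCIRP was lower than that with PBS past the threshold. The cytokines had medians of -2.89 and 0.15, with 15 of 19 called lower for the change between treatments, the CXC chemokines -3.73 and 0.23, and the CC chemokines -1.95 and 1.11. Tnf was higher in libraries labelled TLR4-/- with PBS, at a mean of 984 against 264 normalized counts (1.90), and lower with rmCIRP. Il6 was not called with PBS, at 11430 against 12660 (-0.15, adjusted p = 0.65 from edgeR). The macrophage markers had a median of 2.19 under both treatments, but single markers moved both ways: of the 13, 6 had a higher and 4 a lower genotype difference with rmCIRP than with PBS past the threshold. Of the 27 macrophage identity and lysosome genes, 13 had a higher and 7 a lower difference, against 31.5% of all genes in either direction.

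Some genes were called in opposite directions. Of those lower with rmCIRP and higher with PBS, Il1b, Cxcl10, Gbp5, Il1a and Rsad2 had the largest differences with rmCIRP. With PBS these were higher by 2.08, 1.78, 1.05, 1.25 and 2.12, from mean WT levels of 17.1, 37, 12.1, 44 and 37.3 normalized counts. For 3 of them that value rested on PBS library 3 labelled TLR4-/-, and none of these passed without it: Cxcl10 then differed by 0.8, Rsad2 by 1.01 and Gbp5 by 0.5. Gbp5, whose groups overlapped with PBS, also did not pass without WT PBS library 1 (0.67) or 3 (1.13), nor Cxcl10 without WT PBS library 1 (1.68). Il1b and Il1a passed whichever PBS library was left out. Genes higher with rmCIRP and lower with PBS differed by less. Tgfb3 had 9812, 10190 and 9521 normalized counts in libraries labelled TLR4-/- and 5681, 5440 and 4932 in WT with rmCIRP (0.89, SE 0.13), and means of 9962 and 13580 with PBS (-0.45). The skeletal actin gene Acta1 differed by 0.75 and -0.54, the latter not called in 4 of the 6 fits without 1 PBS library (library 1 or 2 labelled TLR4-/-, WT library 1 or 3; -0.56 to -0.31), the thromboxane receptor gene Tbxa2r by 0.90 and -0.57, Tppp by 0.91 and -0.97, and the predicted gene Gm10824 by 1.31 and -0.67.

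Among the 12 genes furthest above WT, the means of 3 are given side by side for both treatments. Rab3il1 had means of 1150 and 1213 normalized counts in libraries labelled TLR4-/- with rmCIRP and PBS, and 31.2 and 242 in WT. Cnr2 had 236 and 245 against 2.42 and 47.7, and Susd3 had 273 and 302 against 1.69 and 44.1. For these 3 genes the WT means were further apart between treatments than those of the libraries labelled TLR4-/-. The genotype difference was larger with rmCIRP than with PBS past the threshold for 11 of the 12, all but Gm21451. The 12 were picked by their difference with rmCIRP, which favoured this direction in advance.

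In the libraries with rmCIRP plus rmTGF-β1 most of the large genotype differences were called in the same direction. Of the genes higher by at least 1 with rmCIRP, 88.9% were called higher there, and of those lower by at least 1, 81.0% were called lower. The Pearson correlation was 0.902 across the 15735 genes. Il1b differed by -7.54, Ccl5 by -7.67, Cxcl10 by -7.22, Tnf by -3.37, Csf1r by 2.39 and Col1a1 by -0.03 in those libraries. For some genes library 3 labelled TLR4-/- stood apart, with Il6 at 8065, 12230 and 23010 and Lif at 6856, 9403 and 22070 normalized counts. The count of 8295 genes called was 8528 without that library and 6832 in a fit of these 6 libraries alone.

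The neighbours of Tlr4 on its chromosome were counted to place the gene among them. Of the 10 tested genes on each side, 5 were higher, 8 were lower and 7 were not called, with a median of -0.13. Over all genes 59.4% were called, so this count alone does not set the neighbours apart. The largest differences were those of Gm11218 (1.64, SE 0.35), Pappa (1.25, SE 0.08), 8030451A03Rik (-1.15, SE 0.15) and Tnc (-1.08, SE 0.07). The share of genes called varied little between the autosomes, from 56.6% on chromosome 8 to 64.2% on chromosome 1. Nnt, a mitochondrial enzyme gene that is partly deleted in the C57BL/6J substrain, had 1226, 1286 and 1230 normalized counts in libraries labelled TLR4-/- and 2563, 2485 and 2375 in WT, a log2 difference of -0.98 (SE 0.06). With PBS it differed by -1.14. The part of the strain background in the other differences was not tested.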

How the data were processed

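RNA-Seq libraries of mouse pulmonary fibroblasts were grouped by their labels for genotype and treatment. The deposited files hold raw read counts per gene symbol, 1 file per library; for the alignment the authors used STAR2 with a GENCODE reference of the mouse, and ht-seq gave the counts. Their processing notes name FastQC, HTSeq and build NCBIM37. The annotation release and the strand option are not given in the sources used here, so overlapping and antisense genes are uncertain. Of 55291 symbols, 53292 matched GENCODE M21, which, with RefSeq, gave chromosomes and promoters. The 5 tally lines of reads not assigned to a gene, equal to 14.986% to 16.127% of the reads in the 6 libraries, were left out.

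Counts of all 24 libraries were fitted in edgeR 4.0.16 (limma 3.58.1, R 4.3.3) with TMM scaling, filterByExpr and 1 mean for each of 8 conditions, and contrasts were tested by the quasi-likelihood F-test. Genes were called at a Benjamini-Hochberg adjusted p under 0.1 over all 16258 genes tested, and X- and Y-linked genes were then left out. The SE is the fitted log2 difference divided by the square root of F. Size factors came from DESeq2 1.42.0. The common biological coefficient of variation was 0.0571. Pairs of replicates differed beyond sampling noise, with chi-square per degree of freedom between 3.37 and 6.62. That spread does not show that they came from separate cultures. All 6 libraries were kept as separate samples. Counting intervals, at 95%, and the floor of 3 counts cover counting error only. Tables and figures were made in Python 3.11.15 with pandas 2.3.3, numpy 2.4.6, scipy 1.17.1 and matplotlib 3.10.9.

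The genes named were Tlr4, the 12 genes furthest above and below WT among those called that averaged 50 or more normalized counts and did not overlap between groups, members of gene lists (up to 4 with the largest fitted size and those not called), 5 genes in each direction called oppositely with PBS, neighbours of Tlr4 and Nnt. A few further members were named after their values were seen, and some members are not reported here. The members and lists were chosen with earlier results of these data known. On simulated counts for the comparison of labelled TLR4-/- with WT libraries under rmCIRP, 16021 genes entered the step. Of genes changed 1.5-, 2-, 4- and 8-fold, 90%, 98%, 100% and 100% were recovered, with 3.96% of calls false. Only 50 well expressed genes were changed at each fold, all others had equal means, and every gene had the same spread between independent libraries. The real data differ in each of these respects, so 3.96% is no estimate of the false share among the 9354 calls. Alternatives were DESeq2, RLE scaling, other filters, other sets of libraries, a replicate block, a threshold of 0.05, removal of X and Y genes before the fit, and leaving out each library. Leaving out libraries for gene lists and for genes with PBS was added after seeing the data.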

Additional observations from a re-analysis of the deposited data

Results flagged for a closer look

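The genotype difference with rmCIRP was tested against that with PBS by the interaction contrast in edgeR. It differed past the adjusted p threshold for 4949 genes, and the values below are the log2 difference between genotypes with rmCIRP minus that with PBS. The genes named below were picked by their difference with rmCIRP, which is part of this contrast. A shift in the direction of picking was therefore favoured in advance.

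Of the 12 genes furthest below WT with rmCIRP, 10 shifted downward past the threshold by a value that can be read: Il1b by -10.23, Ccl5 by -8.65, Cxcl10 by -8.29, Gm4841 by -8.19, Rsad2 by -7.94, Nos2 by -7.33, Gbp5 by -7.26, Il1a by -7.25, Cxcl3 by -6.39 and Iigp1 by -4.92. The value fitted for Il12b, -16.27, depends on the prior count and is no bound. No rmCIRP library labelled TLR4-/- and no WT PBS library held a read of it. Among the PBS libraries labelled TLR4-/- only library 2 did, at 3.18 normalized counts. Without PBS library 3 labelled TLR4-/- the values of Cxcl10 and Rsad2 were -7.31 and -6.84, and without rmCIRP library 2 labelled TLR4-/- that of Cxcl10 was -9.23, each past the threshold. Csf2 did not pass in this contrast (adjusted p = 0.211 from edgeR).

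Of the 12 genes furthest above WT, 11 had a larger genotype difference with rmCIRP: Susd3 by 4.46, Cnr2 by 4.2, Fgd2 by 3.86, Hpgd by 3.72, Lrmp by 3.12, Rab3il1 by 2.89, Rgs18 by 2.75, Gpr65 by 2.67, Nlrp1b by 2.58, Traf3ip3 by 2.27 and Cx3cr1 by 1.77. The values of Hpgd, Susd3 and Fgd2 rest on 1 to 5 reads over the WT libraries with rmCIRP.

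Genes called higher with rmCIRP and lower with PBS differed between the treatments by 1.98 for Gm10824, 1.88 for Tppp, 1.47 for Tbxa2r, 1.34 for Tgfb3 and 1.29 for Acta1. The sign of these values was fixed by how the genes were picked, so only their sizes are described. The call of Acta1 with PBS was lost without some single libraries, as given above.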

How the results depend on the processing

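The counts of genes called with rmCIRP stayed within 1.5-fold under each alternative run. Against 9354, they were 8616 to 8890 without 1 library and 8459 to 9430 otherwise, with 8932 by DESeq2. Genes higher by at least 1 numbered 1084 to 1136 without 1 library and 952 to 1305 otherwise, and genes lower by at least 1 numbered 954 to 997 and 791 to 1186. With PBS 6310 to 6809 genes were called without 1 library and 6323 to 7408 otherwise, with rmCIRP plus rmTGF-β1 7604 to 8528 and 6832 to 8365, and for the difference between treatments 4114 to 4777 and 3871 to 5597.

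With replicate number as a term (replicate block), 9393 genes were called with rmCIRP, 7408 with PBS, 8362 with rmCIRP plus rmTGF-β1 and 5036 for the difference between treatments. Same-numbered libraries of the rmCIRP groups had deviations correlated at -0.057, 0.0065 and -0.0233, so they share only a number, and not every library correlated best with its own number. Among named genes only Cd14 and Gsr changed side under the block, both to called (adjusted p = 0.0602 and 0.0313 in edgeR).

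Of 228 genes named, 185 kept direction and side of the threshold under each alternative. None of the 171 called genes changed sign. Ly96, H2-K1, H2-Eb1 and Srxn1 lost their call without 1 or more libraries, as given with their values, and H2-Eb1 also by DESeq2, without a filter and in a fit of the 6 libraries alone. Of 57 genes not called, 27 passed under some alternative, 22 of them in the fit of the 6 libraries alone and 16 without a filter. Leaving out 1 library moved 15 called genes by over 1.5-fold, none of them to the other direction. The signs of 12 genes not called, with values near 0 or low counts, changed when 1 library was left out. They ranged from -0.03 to 0.05 for Csf1, -0.01 to 0.15 for C3, -0.11 to 0.1 for Col3a1, -0.24 to 0.04 for Lum, -0.03 to 0.04 for Cnn1, -0.03 to 0.02 for Cald1, -0.005 to 0.05 for Hk1, -0.01 to 0.03 for Pfkl, -0.03 to 0.19 for Fdps, -0.12 to 0.03 for Hmox1, -1.27 to 0.38 for Gli1 and -0.01 to 0.02 for Ldha. Ldha also changed sign by DESeq2, with RLE scaling and without a filter (-0.01 each), with a mean count of at least 10 (-0.002) and in the fit of the 6 libraries alone (-0.0006). The cause of these changes was not tested. Depth limits genes with few reads in 1 group, for which ratios are given with counting intervals or as bounds.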

Other observations

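Values outside the comparisons above concern the libraries as a whole. Mitochondrially encoded genes took between 1.496% and 1.577% of the reads on genes in the rmCIRP libraries labelled TLR4-/- and between 1.345% and 1.456% in WT, and the groups did not overlap. The 10 most abundant genes took between 7.873% and 8.112% and between 8.018% and 8.194%. Among the fibroblast markers, Pdgfra, a receptor that marks lung fibroblasts, had 3057 to 3678 normalized counts in libraries labelled TLR4-/- and 8995 to 9843 in WT (-1.52, SE 0.12), and Thy1 (-0.83, SE 0.04) and Tcf21 (-0.40, SE 0.12) were lower too. Of the 5 mesothelial markers, 3 were higher, 1 was lower and 1 did not pass. Wt1, a transcription factor and the member with the largest difference, had 265 to 279 against 54.5 to 71.1 (2.17, SE 0.11). Neither set of values was tested as an account of the results above.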
